A study of Mus musculus with 20 samples.

Results

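AP-1 is a dimeric transcription factor built from Jun, Fos and ATF proteins. The genes followed here were Jun, Junb, Jund, Fos, Fosb, Fosl2 and Atf3, with Junos, a long noncoding RNA gene on the strand opposite Jun. They were chosen by symbol, with earlier results of these data known, among them the fall of Junos. All probe sets annotated to 1 of these symbols alone were taken. This gave 11 probe sets for 8 genes, out of 34945 single-gene probe sets for 18193 genes. All 11 passed a filter on low values that left 19466 probe sets. The samples were gastrocnemius, a calf muscle, of mice given saline or JA16, an antibody against myostatin, which holds back muscle growth. JA16 was injected into the peritoneum at 0.12 mg per g body weight on day 1 and 0.09 mg per g on day 3, the saline mice were the controls of the same schedule, and all were killed with CO2 on day 5. There were 10 samples in each group. The sources used here give no strain, sex or age, and do not say that each sample came from its own mouse. The p-values therefore measure sample-to-sample spread, which may partly be technical.

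Jun proteins pair with each other or with Fos proteins through a leucine zipper and bind short DNA elements. Jun, Fos, Fosb, Junb and Atf3 are immediate early genes, whose transcripts rise within minutes of nerve activity, contraction, stretch, injury or stress and are short-lived. Fos proteins cannot form stable dimers with each other and depend on a Jun partner. Jund and Fosl2 are held at steadier levels in many tissues. In skeletal muscle the family is known for its response to exercise and damage, and Jun and Junb have been tied to fibre size.

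Same-numbered saline and JA16 samples were compared as pairs. Intensities are MAS5 values on a linear scale, scaled by the authors to one trimmed mean per array. The beta-actin controls, which compare the 3' with the 5' end of 1 transcript, split the arrays into 2 sets. Their log2 ratio was 1.33 to 1.84 for replicates 1 to 6 and 0.48 to 0.64 for replicates 7 to 10. Each set held both groups. In replicates 1 to 6 the ratio ran from 1.69 to 1.84 in saline and reached lower in JA16 samples, from 1.33 to 1.83. In replicates 7 to 10 it ran from 0.48 to 0.64 in saline and from 0.50 to 0.58 in JA16 samples. The saline array had the lower array number in all 10 pairs, so array order and treatment cannot be told apart. The muscle fibre markers Acta1, Ckm, Myh4, Myh1, Tnnt3, Mb, Actn3 and Pvalb were all measured above the filter, 8 of 8, with summed intensities of 138686 to 177403 in saline and 142559 to 205561 in JA16 samples.

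Jun and Junos are neighbours that start back to back. In the RefSeq promoter windows (assembly GRCm38.p6), each 250 bases before and 50 bases after a start site, Jun starts at position 95052222 of chromosome 4 on the minus strand and the first Junos start is at 95052317 on the plus strand. The starts lie 95 bases apart, and the annotated transcripts run away from each other. The Jun window, chr4:95052173-95052472, and the Junos window, chr4:95052067-95052366, share 194 bases, so both genes carry the same elements between their starts. The 2 windows are printed 5' to 3', each on its own gene's strand, because the expression of the pair is compared further on. Capitals mark an AP-1 element (TGACATCA or its reverse complement TGATGTCA) and an element of the MEF2 type, the binding site of a muscle transcription factor family.
Jun: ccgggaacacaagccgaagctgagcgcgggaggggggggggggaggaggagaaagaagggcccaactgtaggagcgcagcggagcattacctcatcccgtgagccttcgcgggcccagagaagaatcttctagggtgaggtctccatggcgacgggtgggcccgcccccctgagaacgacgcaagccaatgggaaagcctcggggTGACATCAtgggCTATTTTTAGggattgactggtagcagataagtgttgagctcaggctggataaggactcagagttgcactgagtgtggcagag
Junos: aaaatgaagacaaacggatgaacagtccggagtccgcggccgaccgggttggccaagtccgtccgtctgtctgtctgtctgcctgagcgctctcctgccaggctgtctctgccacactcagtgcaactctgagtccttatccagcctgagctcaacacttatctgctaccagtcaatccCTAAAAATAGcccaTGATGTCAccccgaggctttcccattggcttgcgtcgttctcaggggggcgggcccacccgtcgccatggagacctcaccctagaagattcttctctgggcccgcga

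The AP-1 element lay at positions -45 to -38 of Jun and -57 to -50 of Junos, and the MEF2 element at -33 to -24 of Jun and -71 to -62 of Junos, counted from each start site. Of 32851 such windows in the table, 3.62% held TGACATCA on either strand and 0.557% held the MEF2 element. The shorter AP-1 element TGACTCA, found in 5.2% of windows, was in neither of these 2 windows. The table lists 7 windows for Junos, and TGACTCA was in the fifth and the seventh of them. Which Junos start the probe set reports is not given in the sources used here. The windows of Fos and Atf3, printed next because these 2 genes varied together across samples, shared another element. Capitals mark TGACGT (or ACGTCA), the core of the cyclic AMP response element, and in Atf3 also a MEF2 element. The Fos window is chr12:85473640-85473939 on the plus strand and the Atf3 window is chr1:191183284-191183583 on the minus strand.
Fos: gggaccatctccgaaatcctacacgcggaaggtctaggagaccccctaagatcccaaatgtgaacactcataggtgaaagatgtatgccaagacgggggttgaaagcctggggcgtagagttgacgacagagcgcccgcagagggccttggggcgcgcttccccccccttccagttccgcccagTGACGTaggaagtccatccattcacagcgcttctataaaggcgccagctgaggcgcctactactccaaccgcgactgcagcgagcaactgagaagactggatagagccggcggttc
Atf3: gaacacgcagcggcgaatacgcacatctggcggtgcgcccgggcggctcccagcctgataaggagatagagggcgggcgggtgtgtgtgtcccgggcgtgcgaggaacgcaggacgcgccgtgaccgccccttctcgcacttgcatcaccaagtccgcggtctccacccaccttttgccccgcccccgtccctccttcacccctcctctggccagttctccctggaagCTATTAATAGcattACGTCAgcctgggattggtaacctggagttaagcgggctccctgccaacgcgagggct

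TGACGT lay at -66 to -61 of Fos and its reverse complement at -8 to -3 of Atf3, and 7.51% of windows held it on either strand. The windows of Junb, Jund, Fosb and Fosl2 held neither AP-1 element, nor TGACGT, nor the MEF2 element. These matches describe the letters of the windows only.

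Junos fell in JA16 samples, and it was the only one of the 11 probe sets to pass the test. It had been taken up knowing that it fell. Its intensity (probe set 1456929_at) was 200.2, 383 and 586 as the lowest, median and highest value in saline and 88.9, 152 and 219 in JA16 samples. Of the 10 saline samples, 9 lay above every JA16 sample. The exception was saline replicate 4, the lowest saline sample, whose partner was the highest JA16 sample at 219. This was also the only pair in which Junos was not lower in JA16. The means were 410 ± 134 (SD, n = 10) in saline and 149 ± 38.9 (SD, n = 10) in JA16 samples. The log2 fold change was -1.43 (SE 0.21, 95% interval -1.89 to -0.98, limma adjusted p = 0.0127), a level of 0.370 times that in saline. Without the replicate block the adjusted p was 0.00451, where 2 of 19466 probe sets passed (0.0103%). Over all probe sets tested, 45 of 19466 passed (0.231%), 20 of them lower (0.103%), and Junos ranked 2 from the most lowered. A fall in at least 9 of 10 pairs was seen for 3.49% of probe sets. The summed nerve and Schwann cell markers were also lower in 9 of 10 pairs, as were the summed endothelial and mural markers. The part of these cell types in this fall was not tested. As the samples are whole muscle, fewer cells that make Junos and less Junos RNA per cell cannot be told apart.

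Within the first array set the mean difference was -1.40, with 5 of 6 pairs lower, and within the second it was -1.49, with 4 of 4 lower. The difference between the sets was -0.092 (SE 0.45, limma adjusted p = 1.00, unadjusted p = 0.841). Fitted in 1 set alone, Junos did not pass (limma adjusted p = 0.288 and 0.440), where 0 of 19466 probe sets passed in either set. With any 1 pair left out the log2 fold change ran from -1.61 to -1.30 and Junos passed each time (adjusted p between 0.00846 and 0.0476). With the beta-actin ratio as a further covariate Junos was at -1.21 and was not called (limma adjusted p = 0.191), where 2 of 19466 probe sets passed.

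**Figure D1:**
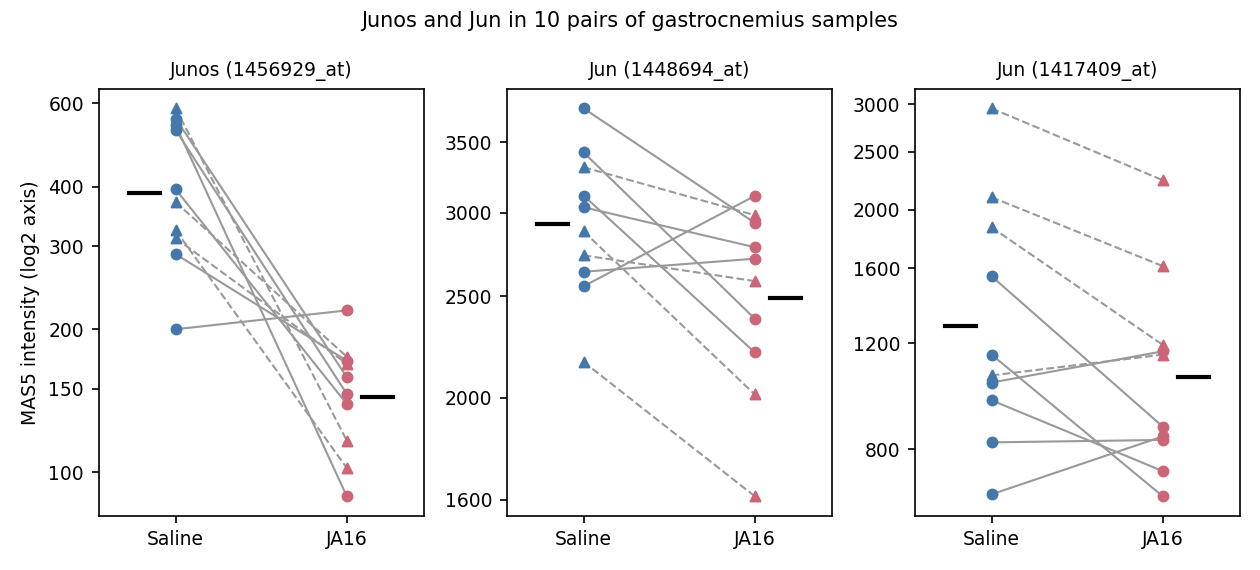
MAS5 intensity (log2 axis) of Junos and of both Jun probe sets in saline (blue) and JA16 (red) samples, with a grey line for each of the 10 pairs and a black bar at the geometric mean of each group. Circles with solid lines are replicates 1 to 6 and triangles with dashed lines replicates 7 to 10. Junos was lower in JA16 in 9 pairs, and Jun in 8 (1448694_at) and 6 (1417409_at). The Junos groups overlapped only by replicate 4 of each group, and the Jun groups overlapped widely.

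Jun encodes c-Jun, the family's strongest activator. Neither of its probe sets passed the test. By probe set 1448694_at, the more abundant, its intensity was 2164, 2959 and 3771 (lowest, median, highest) in saline and 1613, 2648 and 3113 in JA16 samples. The groups overlapped, although 4 saline samples lay above every JA16 sample, and the value was lower in JA16 in 8 of 10 pairs. Its log2 fold change was -0.24 (SE 0.081, 95% interval -0.41 to -0.062, limma adjusted p = 0.208). By probe set 1417409_at the intensity was 673, 1105 and 2951 in saline and 668, 1010 and 2241 in JA16 samples. It was lower in 6 of 10 pairs, with a log2 fold change of -0.28 (SE 0.12, adjusted p = 0.269). A fall in at least 8 of 10 pairs was seen for 11.1% of probe sets, and 15.9% had an unadjusted p under 0.05, as both Jun probe sets had (0.0111 and 0.0281). The array sets differed for 1417409_at, whose saline median was 998 in the first set and 1985 in the second, while that of 1448694_at was 3076 and 2807.

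Junb and Jund encode the other Jun proteins, of which JunB is a weaker activator that can oppose c-Jun. Junb (1415899_at) was dim, at 25.2, 71.0 and 182 in saline and 32.9, 60.6 and 164 in JA16 samples, against a filter level of 50.1. It was lower in JA16 in 5 pairs and higher in 5, with a log2 fold change of -0.19 (SE 0.23, adjusted p = 0.706), which was -0.11, -0.36 and -0.044 without pair 2, 6 or 7. Its spread followed the array sets. Saline replicates 1 to 6 ran from 25.2 to 89.6 and saline replicates 7 to 10 from 129 to 182, with no overlap. The JA16 samples of the same sets ran from 32.9 to 64.4 and from 63.9 to 164. Jund by its bright probe set 1449117_at was the steadiest member, at 6592, 9070 and 11024 in saline and 6702, 9428 and 12317 in JA16 samples. The log2 fold change was 0.058 (SE 0.042, 95% interval -0.031 to 0.15, adjusted p = 0.50), which was 0.036 without pair 8 and turned to -0.0041 with quantile normalization. The dim Jund probe set 1440265_at ran from 33.6 to 65.8 in saline and from 40.9 to 78.3 in JA16 samples, with a log2 fold change of 0.25 (SE 0.19, adjusted p = 0.516).

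Fos and Fosb encode partners of Jun that appear after a stimulus, and no probe set of either passed. Fos (1423100_at) was at 3053, 7267 and 9992 in saline and 2973, 5190 and 8492 in JA16 samples. Of the saline samples 3 lay above every JA16 sample, and Fos was lower in 6 of 10 pairs. Fos had a log2 fold change of -0.36 (SE 0.19, 95% interval -0.76 to 0.038, adjusted p = 0.353), and the pair differences ran from -1.60 to 0.95. Fosb (1422134_at) was the most variable member, at 65.7, 263 and 898 in saline and 67.2, 205 and 498 in JA16 samples. The highest saline sample was 13.7 times the lowest. Its SD within groups was 1.13 on the log2 scale, above that of 97.6% of probe sets tested, where the median was 0.48. Saline replicates 1 (898), 9 (808) and 2 (618) were the highest Fosb samples, and the same 3 pairs held its largest falls. Fosb had a log2 fold change of -0.41 (SE 0.40, adjusted p = 0.624), lower in 6 of 10 pairs, with an interval of -1.26 to 0.43. It was -0.23, -0.10 and -0.24 without pair 1, 2 or 9, and that of Fos was -0.22 without pair 2.

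Fosl2 encodes Fra-2, a Fos protein without the activation domain of Fos itself. By the bright probe set 1437247_at it was at 2258, 2973 and 3522 in saline and 1635, 2852 and 3970 in JA16 samples, higher in 7 of 10 pairs. The log2 fold change was 0.012 (SE 0.12, 95% interval -0.23 to 0.26, adjusted p = 0.971). The pair with the largest fall was number 7, at -1.02. The sign of so small a value turned with several settings, among them quantile normalization (-0.0064). The dim probe set 1422931_at, at 52.4 to 128 in saline and 22.6 to 127 in JA16 samples, was at -0.35 (SE 0.28, adjusted p = 0.544), and at -0.11 without pair 10. Atf3 encodes a stress-induced factor that pairs with Jun proteins and often represses. It was at 564, 1002 and 2263 in saline and 531, 828 and 1578 in JA16 samples, lower in 6 of 10 pairs, with a log2 fold change of -0.28 (SE 0.24, 95% interval -0.78 to 0.23, adjusted p = 0.573). Saline replicates 2 (2263) and 4 (2114) lay above every JA16 sample. Without pair 2, 4, 6 or 10 the fold change of Atf3 was -0.14, -0.15, -0.43 or -0.18.

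In all, 8 of 11 probe sets had a lower mean in JA16 samples, where 56.5% of all probe sets did, and the members' median log2 fold change was -0.28 against -0.029 over all. Junos alone passed. The test of a difference in treatment effect between the array sets called 0 of 11 members in limma, with 0 at an unadjusted p under 0.05, where it called 0 of 19466 probe sets and 509 (2.61%) had such a p.

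**Figure D2:**
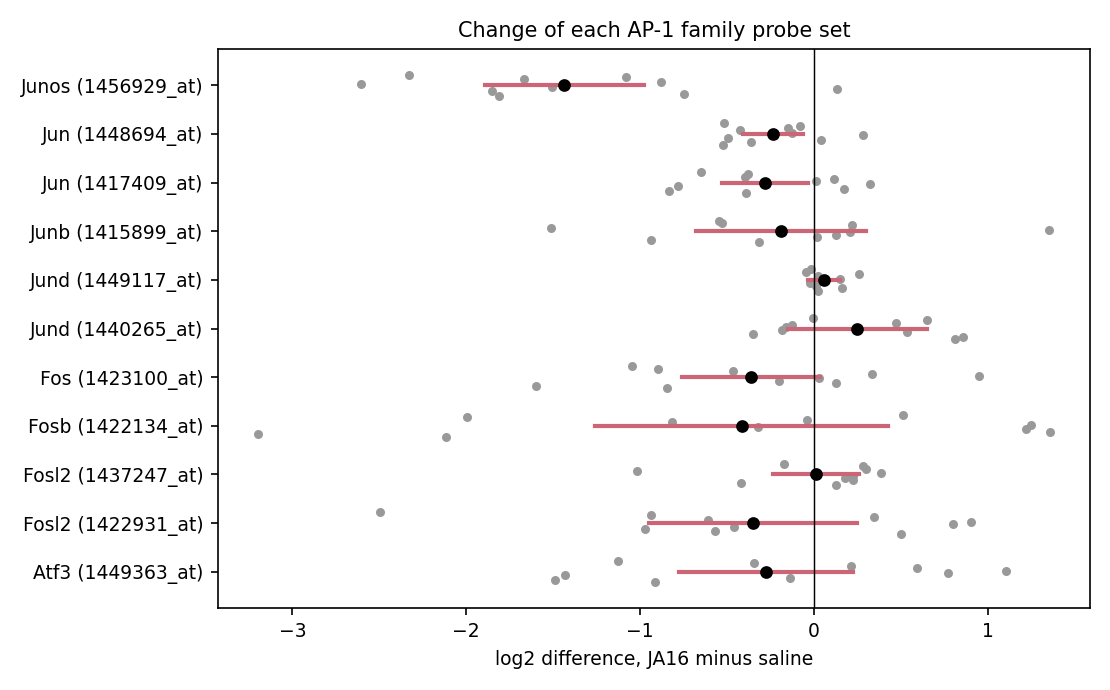
Log2 difference, JA16 minus saline, of the 11 probe sets of the AP-1 family and Junos. Grey points are the 10 pairs, the black point is the fitted mean and the bar its 95% interval from limma. The interval of Junos, -1.89 to -0.98, lies below those of both Jun probe sets, and Fosb has the widest scatter of pairs.

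Junos did not follow Jun across the samples in a way that could be detected. Within saline samples Pearson's r of log2 Junos with log2 Jun (1448694_at) was -0.082 (permutation p = 0.823, n = 10) and Spearman's rho was -0.10 (permutation p = 0.786). Within JA16 samples r was -0.33 (permutation p = 0.358, n = 10) and rho -0.38 (permutation p = 0.278). Over the 10 pair differences r was -0.24 (permutation p = 0.50) and rho -0.091 (permutation p = 0.810). The pairs in which Junos fell most, numbers 6 and 10, had Jun differences of -0.13 and -0.52. Pair 4, where Junos was 0.13 higher in JA16, had a Jun difference of -0.50. These 3 relations belong to a family of 84, all 28 pairs of the 8 genes in 3 ways, of which 0 had an adjusted p under 0.05 by permutation, and 0 of the 21 with Junos had an unadjusted p under 0.05. The Benjamini-Hochberg adjusted permutation p for r was 0.951, 0.666 and 0.724.

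Over all 20 samples a pooled r would hold the treatment difference, so group means were removed first. Then r was -0.20 (permutation of whole pairs, p = 0.308) and rho -0.23 (p = 0.293, permutation of whole pairs). Without the 2 samples farthest from the median of Jun, JA16 replicate 7 and saline replicate 7, r was -0.29. With the means of the array sets removed as well r was -0.26 (permutation p = 0.285). In replicates 1 to 6 r was -0.27 in saline and -0.51 in JA16 samples, with -0.44 over their pair differences. Replicates 7 to 10 are only 4 samples a group, too few for a correlation to be read, and their values were 0.25 in saline, -0.46 in JA16 samples and 0.41 over pair differences, so the sign was not the same in both sets. With the other Jun probe set r was -0.26 (permutation p = 0.167). The sign depended on how arrays were scaled, with r at 0.048 after quantile normalization and 0.29 with array medians centred (permutation p = 0.810 and 0.173). With the scaling as deposited, Jun stood at rank 10238 among 11199 other genes, ranked by r with Junos over the 20 samples with group means removed. This rank was not computed for the other scalings, where r was positive.

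**Figure D3:**
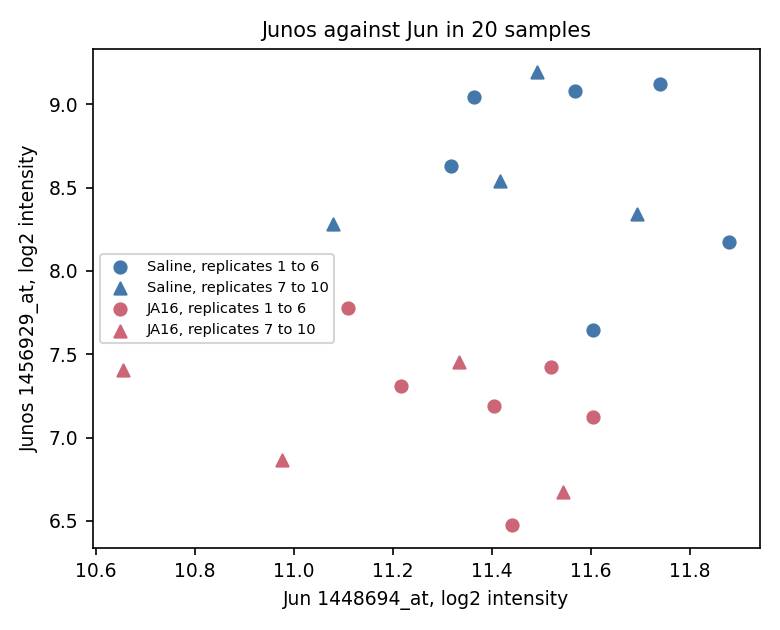
Log2 intensity of Junos against that of Jun (1448694_at) in the 20 samples, saline in blue and JA16 in red, with circles for replicates 1 to 6 and triangles for replicates 7 to 10. Along the Junos axis the groups overlap only by saline replicate 4 and JA16 replicate 4, along the Jun axis they overlap widely, and within neither group do the points form a line.

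The change of Junos was larger than that of Jun. The change of Junos minus that of Jun within a pair was -1.20 ± 0.92 on the log2 scale (SD, n = 10) for 1448694_at, with 9 of 10 values below 0 (two-sided exact test by sign flips, p = 0.00781, where the smallest possible is 0.00195). For 1417409_at it was -1.15 ± 1.04, with 8 of 10 values below 0 (exact p = 0.0137 by the same test). With Benjamini-Hochberg adjustment over the 10 such comparisons with member probe sets, the sign-flip p-values were 0.0195 and 0.0273. Junos was taken up knowing that it fell, so these p-values are not independent of that choice. Against the other members the mean difference of change ran from -1.69 (Jund, 1440265_at) to -1.02 (Fosb), the latter with an SD of 1.97 and Junos lower in 7 of 10 pairs. The genes nearest to Jun and Junos on the chromosome that had a tested probe set did not pass. On the Jun side these were Mysm1, a histone deubiquitinase gene 69881 bases away, and Tek, an endothelial receptor gene 174060 bases away. Mysm1 was at -0.59 (SE 0.21, limma adjusted p = 0.215) and lower in 9 of 10 pairs. Tek was at -0.20 (SE 0.083, limma adjusted p = 0.273) and lower in 8. On the Junos side, Fggy, 388444 bases away, was at 0.011 (SE 0.14) and Hook1, 798145 bases away, at -0.29 (SE 0.16). They were lower in 4 and 6 of 10 pairs. The 5 genes most like Junos over the 20 samples with group means removed were Idh3a (r = 0.72), a Krebs cycle enzyme gene, 2900024J01Rik (0.70), the signalling ligand gene Wnt5a (0.69), Lingo1 (0.65) and Shmt1 (0.65). Jun was most like Gpc1 (0.86), Tysnd1 (0.82), Hagh (0.82), Rab11b (0.82) and Cln6 (0.81), and all these samples share their pairs and array sets.

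Some of the protein-coding members varied together across the samples. With group means removed, Fos and Atf3 had r = 0.67 over 20 samples (permutation of whole pairs, p = 0.00159, adjusted p = 0.0374 over 56 relations). With the means of the array sets removed too it was 0.62 (permutation p = 0.0105, adjusted p = 0.0866), and without the 2 samples farthest from the Atf3 median, saline replicates 2 and 4, it was 0.70. Spearman's rho was 0.72 (permutation p = 0.00048). Among 11199 genes Atf3 ranked 13 by likeness to Fos. The 5 genes most like Fos were Mau2 (r = 0.79), Armt1 (0.75), Dusp1 (0.73), Egr1 (0.73) and Mast4 (0.72). Of these, Dusp1 and Egr1 are further immediate early genes. Jun and Jund had r = 0.72 (permutation p = 0.00267, adjusted p = 0.0374), and 0.51 without JA16 replicate 7 and saline replicate 7. Jun and Atf3 had r = 0.57 (permutation p = 0.0024, adjusted p = 0.0374). By likeness to Jun, Jund ranked 203 and Atf3 1242 among 11199 genes, so many genes outside the family followed Jun as closely. Jund and Atf3 had r = 0.50 (permutation p = 0.00234, adjusted p = 0.0374), which was 0.26 with the means of the array sets removed (permutation p = 0.0677). Fos and Fosb had r = 0.54 (permutation p = 0.0165, adjusted p = 0.0866). After removal of array set means, 0 of 28 relations had an adjusted p under 0.05 by permutation. Junos had a negative r with each of the 7 other genes, from -0.35 with Atf3 to -0.01 with Jund, with 0 of 7 at an unadjusted permutation p under 0.05 for r. With the means of the array sets removed, Junos and Junb had r = -0.54 (permutation p = 0.0527) and rho = -0.57 (permutation p = 0.020). With Atf3 it was 0.089 with array medians centred.

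**Figure D4:**
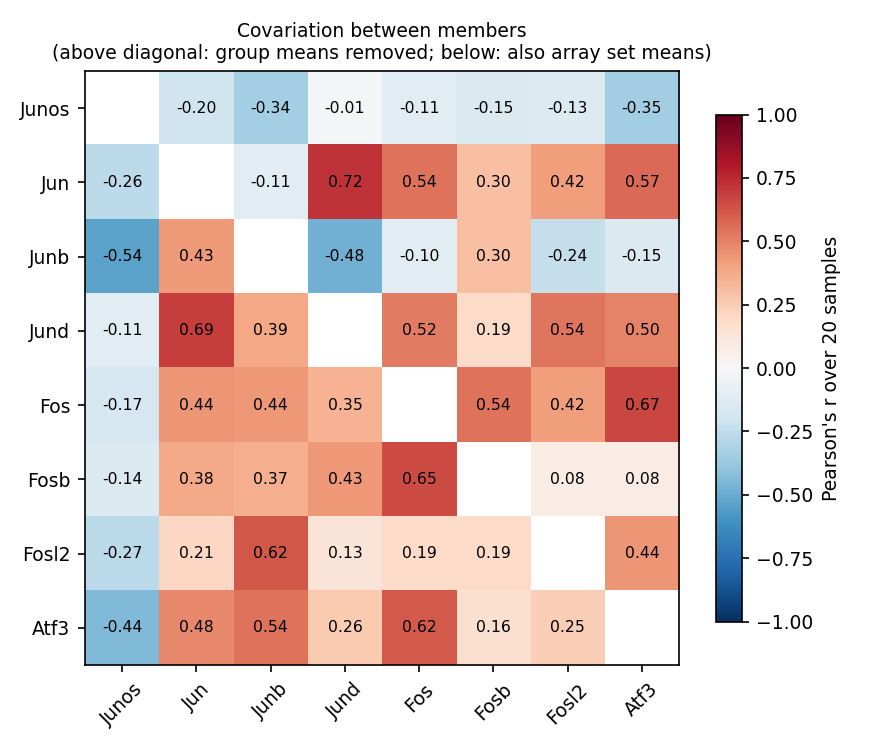
Pearson's r of log2 intensity between the 8 genes over 20 samples, 1 probe set a gene, with group means removed (above the diagonal) or with the means of group and array set removed (below it). Red is positive and blue negative, and the value is printed in each cell. Fos with Atf3 (0.67) and Jun with Jund (0.72) are among the highest values, and the row of Junos holds no positive value.

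Of 84 genes around AP-1 tested in 5 lists, 1 passed, where 31 of all 11200 genes did (0.277%). The lists were chosen with earlier results of these data known, so this is no test of them. The kinases upstream of AP-1 had 21 of 28 listed genes tested, 13 higher and 8 lower in JA16, with a median of 0.043 against -0.016 over all 11200 genes. Rps6ka5, which encodes MSK1, a kinase that phosphorylates CREB and histone H3 at immediate early genes, was called. Its intensity (1431050_at) was 558, 892 and 1288 in saline and 452, 506 and 662 in JA16 samples, lower in 10 of 10 pairs. The log2 fold change was -0.72 (SE 0.11, adjusted p = 0.0175, and 0.120 without the block), and its other tested probe set, 1440343_at, was at -0.96 (SE 0.33) and did not pass (adjusted p = 0.207). Map2k6, a p38 kinase kinase, was at 0.24 (SE 0.082, adjusted p = 0.203). The Jun kinase genes Mapk8 and Mapk9 were at 0.012 and -0.079.

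Other proteins of the leucine zipper class that can pair with AP-1 members had 17 of 23 genes tested, with 0 called and a median of -0.049. The smallest p belonged to Creb1, the cyclic AMP response factor, at -0.39 (SE 0.12, adjusted p = 0.182), and Nfe2l2, the antioxidant response factor, at -0.23 (SE 0.076, adjusted p = 0.192). Of factors that act at AP-1 gene promoters, 11 of 13 were tested and 0 called (median -0.038). Srf, which drives Fos, was at 0.27 (SE 0.081, adjusted p = 0.179), and its cofactor Mrtfa at 0.28 (SE 0.097, adjusted p = 0.212). Brakes on AP-1 had 15 of 18 tested, 0 called and a median of -0.046, with Fbxw7, a ubiquitin ligase subunit that targets c-Jun, at -0.32 (SE 0.11, adjusted p = 0.205) and Gsk3b at -0.20 (SE 0.077). Genes bound or driven by AP-1 had 20 of 30 tested, 11 higher and 9 lower, with 0 called and a median of 0.022. Gadd45a, a growth arrest gene, was higher in all 10 pairs at 0.45 (SE 0.10, adjusted p = 0.0994), and Mmp14 was at -0.29 (SE 0.17).

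Markers of several other cell types had lower means in JA16 samples, as had Junos and 54.2% of all genes tested. All 5 tested nerve and Schwann markers of 8 listed had a lower mean in JA16 (median -0.59, 0 called). Their summed intensity was 9105 to 18600 in saline and 6475 to 18099 in JA16 samples, lower in 9 of 10 pairs. All 8 endothelial and mural markers were lower (median -0.20, 0 called), with sums of 11341 to 14098 and 10260 to 13775, lower in 9 of 10 pairs, and so were all 8 fibroblast and tendon markers (median -0.20, 0 called), with sums of 32352 to 55854 and 19379 to 55780. Of 8 macrophage and leukocyte markers 7 were tested (median -0.12, 0 called), with sums of 6716 to 26240 and 5571 to 22098. The 5 satellite cell markers had a median of -0.052 (0 called), and of the adipocyte and blood markers 2 of 5 and 1 of 4 were tested. The nerve and Schwann sum had the largest mean log2 difference of a list, -0.39. Its pair differences followed those of Junos by rank, with Spearman's rho = 0.84 over 10 pairs (permutation p = 0.00385, adjusted p = 0.0308 over 8 lists) and r = 0.60 (permutation p = 0.0667, adjusted p = 0.534). Without the 2 pairs farthest from the median of the sum r was 0.72, and in replicates 1 to 6 it was 0.66. For the other 7 lists r ran from -0.29 to 0.43, with adjusted permutation p from 0.352 to 0.838 for rho. These relations were computed after the values were seen. The part of nerve and other cell types in the fall of Junos was not tested.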

How the data were processed

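The authors deposited linear-scale array intensities of 20 samples in 2 groups of 10. They come from MAS5, per the submitters' processing notes, with no version. The sources used here state no detection calls, scaling target or genome build. The trimmed mean computed here, with 2% of values cut at each end, was 500.003 to 500.004 over the 20 arrays. Median intensities of the arrays ran from 38.9 to 77.1, and the number of arrays limits the precision.

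Of 45101 probe sets, 34945 had 1 gene in the platform annotation, and identifiers of 34741 matched the RefSeq gene table (GRCm38.p6). The 5 intensities at or below 0 were set to 0.1 before taking log2. Single-gene probe sets with a mean log2 intensity at or above the median of all (5.65) were fitted with limma 3.58.1 in R 4.3.3 (lmFit, eBayes with an intensity trend), with the replicate number as a block. Tests were two-sided, with Benjamini-Hochberg adjustment over 19466 probe sets and a threshold of 0.05. The fit was tested on simulated data. The labels give both groups the numbers 1 to 10. Partners by number deviated together from the group means, with r of 0.45 to 0.79 in 10 of 10 pairs. Samples of different number had a median r of -0.14, with 29 of 90 combinations above 0.1 and the highest at 0.74. Partners always shared an array set, while samples of different number often did not. This comparison therefore cannot tell pairing by number from a shared array set. Samples were treated as paired by number, with the array set as the block among the alternatives. Correlations used numpy 2.4.6 with 100000 permutations, each gene standing for its probe set with the highest mean. Alternatives covered scaling, filter, probe set choice, pseudocount, trend, covariates, array sets and each pair left out. Scaling alternatives for relations other than Junos with Jun were chosen after seeing the data. Named genes were all member probe sets, called list genes, the 2 genes of each list with the smallest p, and the 5 genes most like Junos or Jun. The neighbouring genes, the genes like Fos, and Mapk8 and Mapk9 were added after their values were seen. The members and lists were chosen with earlier results of these data known.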

Additional observations from a re-analysis of the deposited data

How the results depend on the processing

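The number of probe sets past the threshold was 45 with all pairs and 10 to 53 with any 1 pair left out, by over 1.5 times fewer without pair 3 (14), 4 (12), 5 (11), 6 (11), 7 (10), 8 (13) or 9 (14). It was 2 with no replicate block, 2 with no intensity trend, 2 with the beta-actin ratio as a covariate, 10 with the array set as the block, 11 with array medians centred (3 higher, 8 lower, where the main split was 25 and 20), and 0 in replicates 1 to 6 alone and 0 in replicates 7 to 10 alone, with 1937 and 1317 at an unadjusted limma p under 0.05. Of the members, Junos alone passed wherever any did, and 0 passed with a filter at the 75th percentile, which left Junos out, with no trend (Junos adjusted p = 0.0865), with the beta-actin covariate, or in either array set alone. With 1 pair left out the number of members passing was 1 each time. No other member passed under any alternative run, with or without the block. Junos kept its direction throughout (-1.61 to -1.21). Values that changed sign were those of Fosl2 1437247_at (-0.0064 with quantile normalization, -0.17 with the beta-actin covariate, -0.15 in replicates 7 to 10, and -0.029 to 0.13 with 1 pair left out), Jund 1449117_at (-0.0041 with quantile normalization), Junb (0.076 in replicates 1 to 6) and Fosl2 1422931_at (0.033 in replicates 1 to 6). The r of Junos with Jun turned positive with quantile normalization (0.048 over 20 samples, 0.081 in saline and 0.019 in JA16) and with centred medians (0.29, 0.46 and 0.015). With 1 pair left out it ran from -0.28 to -0.12 over the remaining samples and from -0.31 to 0.10 in saline. That of Junos with Atf3 turned to 0.089 with centred medians, and that of Junos with Junb, -0.34, reached -0.43 and -0.48 with quantile normalization and centred medians (permutation p = 0.0492 and 0.0338). The cause of these changes was not tested. Probe sets near the filter level of 50.1 have no detection call here, which limits Junb, Jund 1440265_at and Fosl2 1422931_at.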
